A study of Mus musculus with 21 samples.

Results

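The 10 core circadian clock genes Arntl, Clock, Npas2, Per1, Per2, Per3, Cry1, Cry2, Nr1d1 and Nr1d2 were followed in 21 mouse hearts. They were picked by symbol from the 19096 genes of the deposited gene matrix. All 10 were found, and all 10 were among the 15216 genes that passed the filter on low counts. The series concerns heart failure with preserved ejection fraction, modelled by diet-induced obesity together with hypertension from excess renin, and asks how that pair of stressors and each one alone change the RNA of the heart. Male C57BL/6NJ mice aged 8 to 10 weeks ate chow or, for 10 weeks, a high-fat diet in which fat supplied 60% of the energy. They received an adeno-associated virus carrying renin or, as control, a null vector through the eye's venous sinus, and hearts were freeze clamped 6 weeks after the injection, under pentobarbital. Per-sample labels call the control groups virus-free, while the series text gives them a null vector. The groups were chow with control (chow control, n = 4), chow with renin virus (chow renin, n = 6), high-fat diet with control (high-fat control, n = 6) and high-fat diet with renin virus (high-fat renin, n = 5). Each library came from 1 heart, and whole heart tissue was labelled, with no chamber named.

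The clock is a feedback loop of transcription. BMAL1, the product of Arntl, pairs with CLOCK or NPAS2, binds E-box sequences and switches on the Per and Cry genes, whose proteins return to the nucleus and inhibit the pair. In a second arm the same pair switches on Nr1d1 and Nr1d2, which encode the nuclear receptors REV-ERBα and REV-ERBβ, and these repress Arntl, Clock and Npas2. Transcripts of the activating arm therefore cycle out of phase with those of Nr1d1, Dbp and the Per genes over the day. In cardiomyocytes the loop is known to time genes of metabolism and of ion channels. The time of day at which each heart was taken is not given in the sources used here, so a changed level and a changed phase at collection cannot be told apart in any value that follows.

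The promoters of 3 of the 4 members called in any comparison (Arntl, Per1 and Cry2), and of Per3, are shown to compare the clock motifs in them. Sequences are from RefSeq on GRCm38.p6, where 9 of the 10 members had an entry (all but Per2). Each is the run of 250 bases before the first listed start of the gene, 5′ to 3′ on the gene's strand, and capitals mark a motif match. Motifs searched on both strands were the E-box CACGTG, the E′-box CACGTT (on the other strand AACGTG), the RORE TAGGTNA, the D-box TTANGTAA and the cyclic AMP response element TGACGTCA.
Arntl, chr7:113207215-113207464, plus strand: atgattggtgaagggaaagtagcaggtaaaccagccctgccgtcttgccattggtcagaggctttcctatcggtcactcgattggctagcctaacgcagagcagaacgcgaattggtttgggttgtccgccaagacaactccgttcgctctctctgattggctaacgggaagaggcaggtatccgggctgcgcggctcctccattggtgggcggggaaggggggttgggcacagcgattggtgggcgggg
Per1, chr11:69098699-69098948, plus strand: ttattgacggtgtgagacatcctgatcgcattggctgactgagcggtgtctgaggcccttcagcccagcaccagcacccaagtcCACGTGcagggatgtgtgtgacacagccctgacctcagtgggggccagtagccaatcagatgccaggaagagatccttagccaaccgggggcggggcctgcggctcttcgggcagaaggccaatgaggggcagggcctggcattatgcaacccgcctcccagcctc
Cry2, chr2:92434070-92434319, minus strand: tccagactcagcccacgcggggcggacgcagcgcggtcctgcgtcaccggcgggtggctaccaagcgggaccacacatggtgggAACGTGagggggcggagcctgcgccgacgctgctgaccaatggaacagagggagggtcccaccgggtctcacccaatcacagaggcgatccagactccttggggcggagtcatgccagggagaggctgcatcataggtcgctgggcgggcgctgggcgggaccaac
Per3, chr4:151044666-151044915, minus strand: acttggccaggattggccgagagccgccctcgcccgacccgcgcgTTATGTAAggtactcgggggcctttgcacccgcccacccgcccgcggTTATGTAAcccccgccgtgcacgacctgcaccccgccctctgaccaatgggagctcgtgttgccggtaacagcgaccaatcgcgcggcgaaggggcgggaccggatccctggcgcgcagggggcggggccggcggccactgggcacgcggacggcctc
The Arntl window held none of the 5 motifs, and neither did those of Npas2, the other member called, Clock and Nr1d2, which are not printed. The Per1 window held an E-box at −166 to −161 from the start, and the Cry2 window held an E′-box at the same place, −166 to −161. The windows of further listed starts, 1 each for Arntl and Per1 and 2 for Clock, held no complete motif. The further Arntl window ended in taggtt, which matches the RORE as far as it runs. Bases after a listed start were not searched, so a motif that crosses or follows a start would be missed. Per3 had 2 D-boxes, at −205 to −198 and at −158 to −151. Of the other windows not printed, Cry1 held an E-box at −60 to −55 and an E′-box at −79 to −74, and Nr1d1 an E′-box at −28 to −23. Among all 32851 promoter windows of that length, 6.02% held the E-box, 3.85% the E′-box, 7.25% the RORE, 2.06% the D-box and 1.55% the cyclic AMP response element. A match describes the letters and does not show that a factor binds there.

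Some libraries stood apart before any comparison. Chow control libraries held 18.7 to 21.4 M (mega) estimated reads and those of the other groups 22.8 to 29.3 M, so depth and chow control cannot be told apart. Thinned to the smallest library, the data still called Arntl, Per1 and Cry2 in high-fat renin versus chow control. The deposited column names of 3 libraries carry numbers well below those of the other 18. They are high-fat renin 1 and chow control 1 and 2, and what the numbers mean is not stated. High-fat renin 1 also had the highest Arntl, the highest Clock and the lowest Per3 of all 21 hearts, so results that rest on it are given without it as well. The 20 marker genes of neurons, oligodendrocytes and astrocytes that were summarised as 1 mean log2 level lay at 3.53 to 4.26 in chow renin and at 1.76 to 2.65 in the other groups. In chow renin their level and the group cannot be told apart. Atrial genes set 5 libraries apart, namely chow control 3, chow renin 1 and 3, high-fat control 3 and high-fat renin 3. The atrial myosin light chain gene Myl7 was at 103 to 254 CPM in those 5 and at 0.278 to 2.98 CPM in the other 16, and Sln at 34.0 to 73.1 CPM against 0 to 0.667. Leaving those 5 out, a choice made after seeing the data, is given beside the results it bears on. It keeps chow control 1, 2 and 4, of which 1 and 2 are numbered apart. Leaving out the 3 libraries numbered apart keeps chow control 3 and 4, of which 3 has atrial Myl7. The 2 choices thus rest on different chow control hearts, and neither gives a cleaner value than the other. P-values measure the spread between hearts that the labels name as separate mice, and in whole tissue fewer cells of a type and less RNA per cell cannot be told apart.

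Levels of different genes were compared as TPM, a length-scaled share of all transcripts. Nr1d1 was the most abundant member, with a median of 39.2 TPM over 21 hearts, followed by Nr1d2 at 16.9, Per1 at 14.9 and Cry2 at 11.4 TPM. Per3 had a median of 5.78 TPM, Per2 of 4.10 and Cry1 of 2.82. The activating arm was lowest, with Clock at 1.85, Arntl at 0.837 and Npas2 at 0.435 TPM. Nr1d2 and Per1 were not separated, since Nr1d2 was above Per1 in 13 of 21 hearts. Per3 was above Per2 in 19 and Arntl above Npas2 in 20 hearts, and each of the other neighbours kept its order in 21 of 21. Arntl had 30 to 181 reads per library and Npas2 25 to 84, so their ratios carry more counting error than those of Nr1d1, which had 1521 to 3894 reads. Nr1d1 shares 263 bases of its exons (8.55%) with Thra on the opposite strand, and whether the counting used strand is not given in the sources used here, so its counts are uncertain. For Per3, a processed transcript with no annotated coding sequence took on average 47.5% of the gene's summed TPM.

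**Figure D1:**
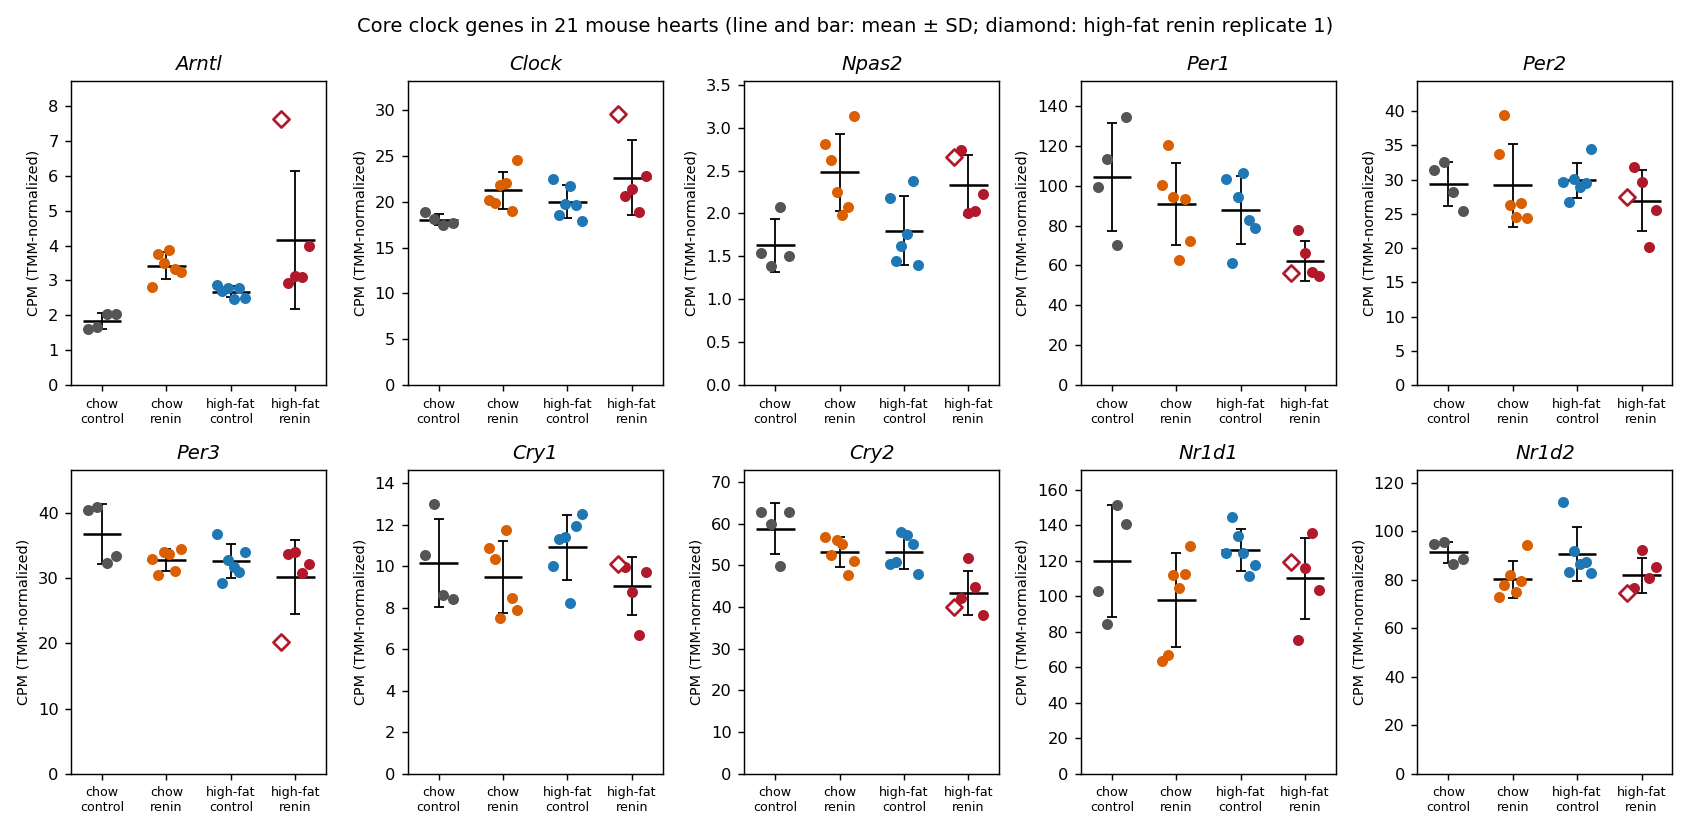
Normalized expression (y axis, CPM after TMM normalization, each gene on its own scale from 0) of the 10 core clock genes in every heart, by group on the x axis. Points are hearts, horizontal lines and bars are mean ± SD, and the open diamond is high-fat renin 1, which reached 7.63 CPM for Arntl and 20.2 CPM for Per3. All 4 chow control hearts lie below every other heart for Arntl.

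With both stressors combined, high-fat renin against chow control, Arntl rose and Per1 and Cry2 fell. They are 3 of the 10 members, at an edgeR adjusted p under 0.05 over all genes, where 8.31% of all genes tested were called, 4.05% higher and 4.26% lower. The 3 genes of the activating arm had positive log2 fold changes and the 7 repressors negative ones, with a median over the 10 of −0.14 against 0.01 over all genes. That split of signs is a description, and Nr1d1 turned to 0.01 without chow control 3 and Cry1 to 0.04 without the 3 libraries numbered apart. In chow renin against chow control, Arntl and Npas2 rose and 0 members fell, where 13.5% of all genes were called and 10.1% were called higher. In high-fat control against chow control, 0 members passed, 1 had an unadjusted p under 0.05 and DESeq2 called 0. Only 0.0657% of all genes were called there. Renin on top of the high-fat diet, set against that diet alone, called Arntl higher and Cry2 lower, where 11.1% of all genes were called, 6.07% higher and 5.08% lower. The diet on top of renin, set against chow renin, called Per1 and Cry2 lower, where 22.6% of all genes were called and 12.8% were lower. The interaction of diet and renin called 0 members by edgeR and 0 by DESeq2, with 0 at an unadjusted p under 0.05, where 10.4% of all genes were called. Over 5 comparisons and the interaction, 9 of 60 tests of members were called, and they concerned 4 genes. The shares over all genes ran from 0.0657% to 22.6% in the same tests, so the 9 calls are not read as an excess. Several of these comparisons share hearts, so their calls are not independent.

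Arntl encodes the partner without which neither CLOCK nor NPAS2 binds its target DNA. The 4 chow control hearts had 1.59, 1.67, 2.02 and 2.04 CPM of Arntl. The chow renin hearts ranged from 2.81 to 3.88 CPM with a median of 3.42. The high-fat control hearts ranged from 2.48 to 2.88 CPM with a median of 2.73. The high-fat renin hearts had 7.63, 2.94, 3.12, 3.10 and 3.98 CPM. All 17 hearts with either stressor or both were above all 4 hearts with neither, and the 5 high-fat renin hearts were above the 6 high-fat control hearts, though the lowest of the former (2.94 CPM) lay next to the highest of the latter (2.88 CPM). Against chow control, high-fat renin lay wholly above for 1 member, as did 4.98% of all genes, and high-fat control for 1 member, as did 1.06% of all genes. Chow renin lay wholly above chow control for 2 members, Arntl and Clock, where 10.4% of all genes did. Set against high-fat control, high-fat renin lay wholly above for 1 member, where 1.95% of all genes did.

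The rise of Arntl in high-fat renin over chow control was 2.26-fold, a log2 fold change of 1.17 ± 0.23 (SE; means 4.15 ± 1.98 CPM, SD, n = 5, and 1.83 ± 0.23, n = 4; edgeR adjusted p = 0.00281). Without high-fat renin 1 it was 0.83 (adjusted p = 0.00407). Without all 3 libraries numbered apart it was 0.69 and did not pass (adjusted p = 0.0924), in a fit that called 0.269% of all genes in this comparison. Without the 5 libraries with atrial Myl7 it was 1.30 (adjusted p = 0.00682). In chow renin the rise was 1.86-fold, 0.90 ± 0.22 (adjusted p = 0.0058), and it stayed called in each of the 21 fits that left out 1 library. With the nervous system marker level in the fit it was 2.18 (adjusted p = 0.0765), a fit in which 0.21% of all genes were called. On the high-fat diet alone the log2 difference was 0.55 ± 0.22, with an unadjusted p of 0.0212 and an adjusted p of 0.372. The groups did not overlap there.

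Renin added to the high-fat diet raised Arntl by 0.62 ± 0.19 (edgeR adjusted p = 0.037). That call was lost in 7 of 21 fits that left out 1 library, namely high-fat control 2, 3, 4, 5 or 6 or high-fat renin 1 or 5, with adjusted p of 0.0539 to 0.222. It was 0.29 without high-fat renin 1 (adjusted p = 0.222) and 0.29 without the 3 libraries numbered apart (adjusted p = 0.219). The call was also lost with only the groups compared (adjusted p = 0.12), the replicate block (0.0846), the nervous system marker level in the fit (0.0875) and the deposited signal (0.104). The interaction, which is renin's effect under the high-fat diet less its effect under chow, was −0.27 ± 0.29 for Arntl (adjusted p = 0.64). Without high-fat renin 1 the interaction was −0.62, with an adjusted p that rounds to 0.05 and lay just under the threshold. High-fat renin and chow renin hearts did not differ in Arntl by the test (0.27 ± 0.19, adjusted p = 0.331, and −0.08 without high-fat renin 1, adjusted p = 0.759), and their ranges overlapped.

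Clock and Npas2 encode the 2 interchangeable partners of BMAL1, and Npas2 is also known from the forebrain. Clock ranged from 17.5 to 18.9 CPM in chow control, from 19.0 to 24.5 in chow renin and from 17.8 to 22.4 in high-fat control. The high-fat renin hearts had 29.5, 20.6, 21.4, 18.8 and 22.8 CPM. All 6 chow renin hearts were above the chow control hearts, by values that did not pass the test (0.24 ± 0.10, edgeR adjusted p = 0.134). From chow control to high-fat renin the log2 difference for Clock was 0.33 ± 0.10, with an adjusted p of 0.0527, and 0.20 without high-fat renin 1 (adjusted p = 0.191). It passed by DESeq2 (adjusted p = 0.0424) and with the nervous system marker level in the fit (0.41, adjusted p = 0.0145).

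For Npas2, chow control hearts had 1.54, 1.39, 2.08 and 1.5 CPM, and chow renin hearts ranged from 1.98 to 3.13 CPM with a median of 2.44. Those ranges overlapped in 1 heart, and 5 of 6 chow renin hearts were above every chow control heart, the closest at 2.08 CPM on both sides. The rise was 1.52-fold, 0.61 ± 0.19 on the log2 scale (edgeR adjusted p = 0.037). It was lost in 6 of 21 fits without 1 library, those without chow control 1, 2 or 4 or chow renin 1, 2 or 6 (adjusted p 0.0632 to 0.128), and on thinned libraries (0.50, adjusted p = 0.222). Without the 3 libraries numbered apart (0.48, adjusted p = 0.342), with no filter (0.0605) and with the replicate block (0.0796) it was lost as well. With the nervous system marker level in the fit it was 1.08 (adjusted p = 0.558), and without the 5 libraries with atrial Myl7 it was 0.75 (adjusted p = 0.0551). Npas2 ranged from 1.4 to 2.38 CPM in high-fat control and from 2.01 to 2.74 in high-fat renin, and neither differed from chow control by the test (adjusted p = 0.839 and 0.113).

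The Per genes encode the repressors that accumulate first in the loop, and Per1 is in addition induced directly by glucocorticoid and cyclic AMP signalling. Per1 was at 99.1, 113, 70.2 and 135 CPM in chow control. In chow renin it ranged from 62.9 to 120 CPM with a median of 93.9, and in high-fat control from 61.2 to 106 with a median of 88.4. The high-fat renin hearts had 56.0, 78, 66.5, 56.6 and 54.5 CPM, and 4 of the 5 were below every chow control heart.

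Per1 fell to 0.597 of the chow control level in high-fat renin, a log2 fold change of −0.74 ± 0.20 (means 62.3 ± 9.94 CPM, SD, n = 5, and 104 ± 27.0, n = 4; edgeR adjusted p = 0.0262). The call was lost in 5 of 21 fits without 1 library, those without chow control 1, 2 or 4 or high-fat renin 1 or 5 (adjusted p 0.0502 to 0.11). It was also lost without the 3 libraries numbered apart (−0.69, adjusted p = 0.252) and with the replicate number as a block (adjusted p = 0.0651). Against chow renin the fall was −0.54 ± 0.18 (adjusted p = 0.0368), lost in 7 of those fits (without chow renin 1, 2, 3 or 5 or high-fat renin 1, 4 or 5), without the 3 libraries numbered apart (−0.52, adjusted p = 0.114) and with the nervous system marker level in the fit (−0.27, adjusted p = 0.998). The replicate block (adjusted p = 0.0531), no filter (0.0638) and the deposited signal (0.0623) ended that call too. Chow control 3, the lowest of its group for Per1, was among the 5 libraries with atrial Myl7. Without those 5 the fall against chow control was −0.93 (adjusted p = 0.0214), and that against chow renin was −0.54 and did not pass (adjusted p = 0.102). Against high-fat control the difference was −0.49 ± 0.18 and did not pass (adjusted p = 0.0825, although DESeq2 gave 0.0273). Neither stressor alone gave a difference that passed, with −0.20 in chow renin (adjusted p = 0.574) and −0.25 in high-fat control (adjusted p = 0.675). The interaction was −0.29 ± 0.26 (adjusted p = 0.567).

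Per2 and Per3 passed the test in no comparison. Per2 was between 20.2 and 39.4 CPM over all 21 hearts, with group means of 26.9 ± 4.44 (SD, n = 5) in high-fat renin, 29.9 ± 2.52 (n = 6) in high-fat control, 29.1 ± 6.07 (n = 6) in chow renin and 29.4 ± 3.26 (n = 4) in chow control. Its log2 differences over the 5 comparisons of groups lay between −0.15 and 0.03. Per3 was at 40.5, 40.9, 32.3 and 33.4 CPM in chow control and at 20.2, 33.7, 34.0, 30.9 and 32.1 CPM in high-fat renin. Of those 5 hearts, high-fat renin 1 was alone below 30 CPM, and the other 4 sat within the range of chow renin (30.5 to 34.6). The log2 difference was −0.28 ± 0.11 (edgeR adjusted p = 0.116), and −0.18 without that heart (adjusted p = 0.197). It was −0.01 without the 3 libraries numbered apart (adjusted p = 0.963) and −0.40 without the 5 with atrial Myl7 (adjusted p = 0.0663).

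Cry1 and Cry2 encode the cryptochromes, the main inhibitors of the CLOCK and BMAL1 pair. Cry2 was at 62.8, 59.9, 49.9 and 62.8 CPM in chow control. In chow renin it ranged from 47.6 to 56.9 CPM with a median of 53.8, and in high-fat control from 47.8 to 58.1 with a median of 52.9. The high-fat renin hearts had 39.9, 42.2, 51.8, 44.7 and 38.0 CPM. In that group 4 of 5 hearts were below every heart of the other 3 groups, and high-fat renin 3 lay among them.

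Cry2 fell in high-fat renin to 0.737 of chow control, −0.44 ± 0.09 on the log2 scale (means 43.3 ± 5.36 CPM, SD, n = 5, and 58.8 ± 6.12, n = 4; edgeR adjusted p = 0.00332). That call stayed in all 21 fits that left out 1 library, and was −0.42 without high-fat renin 1 (adjusted p = 0.0112), but was lost without all 3 libraries numbered apart (−0.36, adjusted p = 0.157; 0.269% of all genes called in that fit). High-fat renin 3, and chow control 3 with the lowest Cry2 of its group, were among the 5 libraries with atrial Myl7. Without those 5 the fall was −0.60 ± 0.08 (adjusted p = 0.000324), and it was −0.35 against both high-fat control (adjusted p = 0.00611) and chow renin (adjusted p = 0.0024). In all 21 libraries the difference of Cry2 from high-fat control was −0.30 ± 0.08 (adjusted p = 0.0182), a call lost without high-fat renin 1 or 5 (adjusted p = 0.0655 and 0.0691), without the 3 libraries numbered apart (−0.27, adjusted p = 0.0881) and with only the groups compared in the fit (adjusted p = 0.061). That from chow renin was also −0.30 ± 0.08 (adjusted p = 0.00811), which held without any 1 library, while the nervous system marker level in the fit turned it to 0.03 (adjusted p = 0.999). Neither stressor alone passed for Cry2, at −0.14 in both chow renin (adjusted p = 0.294) and high-fat control (adjusted p = 0.553). The interaction for Cry2 was −0.15 ± 0.12 (adjusted p = 0.479).

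Cry1 passed in no comparison. Its group means were 9.05 ± 1.42 CPM (SD, n = 5) in high-fat renin, 10.9 ± 1.55 (n = 6) in high-fat control, 9.48 ± 1.75 (n = 6) in chow renin and 10.2 ± 2.13 (n = 4) in chow control. The lowest heart, at 6.70 CPM, was high-fat renin 4 and the highest, at 13, was chow control 2. From high-fat control to high-fat renin the difference for Cry1 was −0.27 ± 0.14 (edgeR adjusted p = 0.225).

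Nr1d1 and Nr1d2, whose products repress Arntl, did not pass in any comparison. Nr1d1 was at 84.5 to 151 CPM in chow control and at 119, 75.1, 116, 136 and 104 CPM in high-fat renin, and the groups overlapped throughout. In chow renin, replicates 1 and 2 had 63.6 and 67.1 CPM and the other 4 had 104 to 128, while the high-fat control hearts lay between 111 and 144 CPM. The log2 difference of Nr1d1 against chow control was −0.12 ± 0.21 in high-fat renin (edgeR adjusted p = 0.763), −0.29 ± 0.20 in chow renin (adjusted p = 0.41) and 0.07 ± 0.20 in high-fat control (adjusted p = 0.925). Nr1d2 varied less, from 72.9 to 112 CPM over 21 hearts, with −0.16 ± 0.09 in high-fat renin (adjusted p = 0.276) and −0.19 ± 0.08 in chow renin (adjusted p = 0.153).

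**Figure D2:**
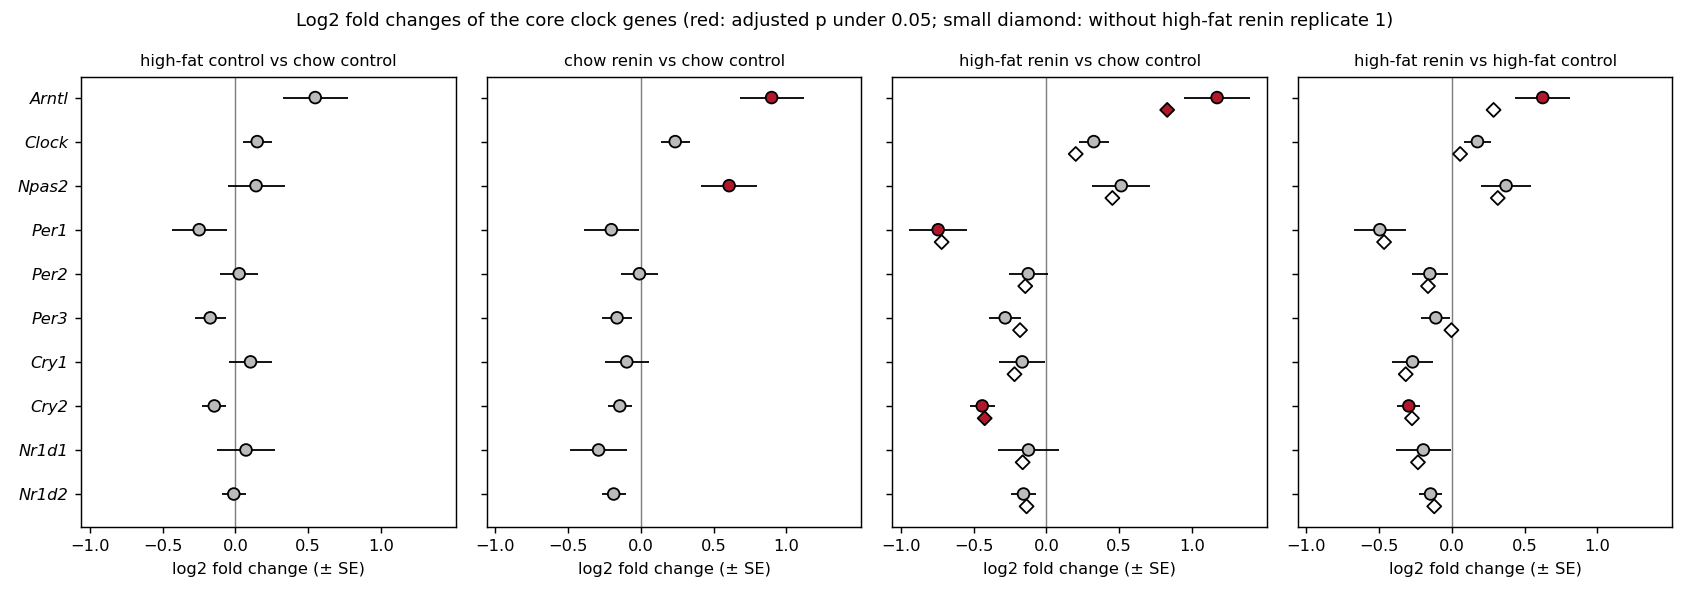
Log2 fold changes (x axis, ± SE) of the 10 core clock genes (y axis) in 4 comparisons, from 1 edgeR fit over 21 libraries. Red marks an adjusted p under 0.05, and small diamonds give the value without high-fat renin 1, for example 0.83 in place of 1.17 for Arntl between chow control and high-fat renin.

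The authors' deposited table holds log2 fold changes of its own for 1 comparison headed as high-fat diet with virus, whose reference group is not stated. In the authors' deposited table Arntl had a log2 fold change of 0.94 with an adjusted p of 0.00031. Per1 had −0.50 (adjusted p = 0.00649) and Cry2 −0.38 (adjusted p = 0.000103) in the authors' deposited table. The other 7 members had adjusted p-values from 0.0834 for Clock to 0.763 for Nr1d1 in the authors' deposited table.

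The balance between the arms was also described per heart, as Arntl TPM in percent of the TPM of Dbp, Nr1d1, Per3 or Cry2. Dbp and Cry2 were themselves called lower in high-fat renin against chow control, so their ratios hold that fall as well. Relative to Dbp, a transcription factor driven by E-boxes, Arntl was at 0.604% to 0.852% in chow control and at 0.961% to 1.26% in high-fat control. It was at 1.45% to 2.38% in chow renin and at 1.33% to 5.71% in high-fat renin. Both renin groups were thus above both control groups in every heart, and high-fat control was above chow control. Relative to Nr1d1, medians were 3.50% in high-fat renin and 3.34% in chow renin, beside 1.85% in high-fat control and 1.37% in chow control, and high-fat renin, from 2.07%, overlapped high-fat control, up to 2.29%. Relative to Per3, they were 16.6%, 18.8%, 13.5% and 8.69% in the same order, and high-fat renin, from 15.5%, again overlapped high-fat control, up to 16.0%. High-fat renin 1 alone reached 71.0% there. Relative to Cry2, the medians were 9.38%, 9.44%, 7.01% and 4.13%, and the lowest chow renin heart and the highest high-fat control heart were both at 7.71%. These ratios use the same Arntl values as the tests above and are not further evidence for them.

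Genes around the core loop were taken from 4 lists, and each count that follows stands beside 4.05% of all genes called higher and 4.26% called lower in high-fat renin against chow control. Among 7 genes of the accessory feedback arm (Arntl2, the Ror genes, Bhlhe40, Bhlhe41 and Ciart), 0 rose and 1 fell in high-fat renin against chow control. It was Ciart, which encodes a repressor of the CLOCK and BMAL1 pair and had 24.6, 19.9, 16.2 and 28.3 CPM in chow control and 14.2, 8.70, 12.2, 10.2 and 10.0 CPM in high-fat renin. Every high-fat renin heart was below every chow control heart for Ciart, and the fall was −1.01 ± 0.17 (edgeR adjusted p = 0.00152), called in all 21 fits without 1 library. The share of all genes that lay wholly below chow control is not given here. That separation, and those of Dbp and Csnk1e further on, are therefore descriptions only. Ciart also fell in chow renin, by 0.53 on the log2 scale (adjusted p = 0.0323), a call lost in 6 of the 21 fits without 1 library. It was lost as well without the 5 libraries with atrial Myl7 (adjusted p = 0.059) and without the 3 numbered apart (−0.53, adjusted p = 0.161). The −0.57 of Ciart in high-fat control did not pass (adjusted p = 0.193). With no filter (adjusted p = 0.0671), the replicate block (0.113), the nervous system marker level in the fit (0.841) or the deposited signal (0.0808) that chow renin call was lost too. The other gene of that list to be called was Rorb, lower in high-fat renin than in chow renin (−0.66 ± 0.24, adjusted p = 0.0454), with 0.667 to 2.81 CPM over the groups. That call was lost in 10 of 21 fits without 1 library, that without high-fat renin 1 among them (adjusted p = 0.0642). It was also lost without the 5 libraries with atrial Myl7 (−0.49, adjusted p = 0.197). With the nervous system marker level in the fit Rorb was at −0.06 (adjusted p = 0.999).

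Of the 3 PAR bZIP factors, known to bind D-boxes, and their antagonist Nfil3, 2 of 4 fell in the same comparison. Dbp had 145, 131, 139 and 158 CPM in chow control and 73.8, 85.4, 117, 130 and 89.7 CPM in high-fat renin, with no overlap between the groups. Its fall was −0.53 ± 0.14 (edgeR adjusted p = 0.0195), lost without chow control 4 or high-fat renin 2 or 5 (adjusted p 0.0518 to 0.0726) and without the 3 libraries numbered apart (−0.50, adjusted p = 0.161). Dbp was at −0.39 in chow renin (adjusted p = 0.0469, lost in 15 of 21 fits without 1 library and without the 5 with atrial Myl7). Tef fell by 0.29 on the log2 scale (adjusted p = 0.0249), lost without high-fat renin 1 (adjusted p = 0.0692) in 5 others of the 21 fits and without the 3 libraries numbered apart (adjusted p = 0.327). Hlf was at 18.0, 25.5, 34.7, 35.4 and 19.4 CPM in high-fat renin, so that 3 hearts were low and 2 were among the 33.1 to 50.0 CPM of high-fat control. It fell against high-fat control (−0.59 ± 0.16, adjusted p = 0.0199) and was −0.55 against chow control (adjusted p = 0.0508), or −0.75 without the 5 libraries with atrial Myl7 (adjusted p = 0.0176). The call against high-fat control was lost without high-fat renin 1, 2 or 5 and without the 3 libraries numbered apart (adjusted p = 0.0924). With only the groups compared in the fit, the calls against chow control of Dbp (adjusted p = 0.0735) and Tef (0.0524) and that of Hlf against high-fat control (0.105) were lost. The chow renin call of Dbp was lost in 7 of the other alternatives as well, RLE factors (adjusted p = 0.0537) among them.

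Of 9 tested genes for kinases and ubiquitin ligases that act on clock proteins and their partners, 1 rose and 1 fell in high-fat renin against chow control. Csnk1e encodes casein kinase 1 epsilon, which phosphorylates PER proteins. It was at 45 to 49.4 CPM in chow control and at 32.6, 33.4, 37.6, 44.1 and 39.6 CPM in high-fat renin, below every chow control heart. The difference was −0.34 ± 0.07 (edgeR adjusted p = 0.00616), and −0.30 ± 0.07 against high-fat control (adjusted p = 0.00625). The first of these Csnk1e calls was lost without the 3 libraries numbered apart (−0.35, adjusted p = 0.0834), and the second with only the groups compared in the fit (adjusted p = 0.0505). Timeless, best known for its part in DNA replication, was at 10.5 to 13.3 CPM in chow control and at 16.6, 19.4, 16.4, 15.4 and 23.8 CPM in high-fat renin. It rose by 0.66 ± 0.16 (adjusted p = 0.0128), lost without chow control 1 or 4 and without the 3 libraries numbered apart (0.72, adjusted p = 0.131). Csnk2a1 rose against chow renin (0.19, adjusted p = 0.0205; lost without chow renin 1 or 3 or high-fat renin 1, adjusted p 0.0916 to 0.158, without the 3 libraries numbered apart, 0.103, and without the 5 with atrial Myl7, 0.225) and Fbxw11 against high-fat control (0.21, adjusted p = 0.0456; lost in 15 of 21 fits).

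Among 10 genes known as outputs of the heart's clock, 5 fell and 0 rose in high-fat renin against chow control, beside the 4.26% lower and 4.05% higher of all genes. Usp2, a deubiquitinase gene, fell by 0.46 (edgeR adjusted p = 0.00217), from 127 to 160 CPM in chow control to 93.0 to 122 CPM. Dgat2, which encodes an enzyme of triglyceride synthesis, fell by 0.53 (adjusted p = 0.00232). Coq10b fell by 0.48 (adjusted p = 0.00488), and also in chow renin by 0.42 (adjusted p = 0.00269), where it was −0.10 with the nervous system marker level in the fit (adjusted p = 0.956) and −0.30 without the 3 libraries numbered apart (adjusted p = 0.179). Kcnip2, the subunit that with Kv4 channels carries the transient outward potassium current, fell by 0.91 ± 0.19 (adjusted p = 0.00584), from 159 to 189 CPM in chow control to 67.1 to 117 CPM. Each of these 4 calls against chow control in high-fat renin stayed in all 21 fits without 1 library. Without the 3 libraries numbered apart all 4 were lost, at −0.30 for Usp2 (adjusted p = 0.185), −0.34 for Dgat2 (0.191), −0.38 for Coq10b (0.18) and −0.84 for Kcnip2 (0.12). The last of the 5, Tspan4, fell by 0.36 (adjusted p = 0.0299) and was named after its values were seen. Nampt, an enzyme gene of NAD synthesis, fell against high-fat control (−0.33 ± 0.09, adjusted p = 0.0195), lost without high-fat renin 1 (adjusted p = 0.0624) or 5, without the 3 libraries numbered apart (adjusted p = 0.0869) and with only the groups compared (adjusted p = 0.0918). Usp2 (−0.28) and Dgat2 (−0.33) fell there too (both adjusted p = 0.0199). Both calls were lost without high-fat renin 1, 2 or 5 and without the 3 libraries numbered apart (adjusted p = 0.0858 and 0.0834). Usp2 also fell in chow renin against chow control (−0.29, adjusted p = 0.0171). That call was lost in 3 of 21 fits without 1 library and without the 3 numbered apart (adjusted p = 0.453). Medians over the lists in high-fat renin against chow control were −0.01 for the accessory arm, −0.41 for the PAR bZIP list, 0.03 for the kinases and ligases and −0.38 for the outputs, beside 0.01 over all genes.

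**Figure D3:**
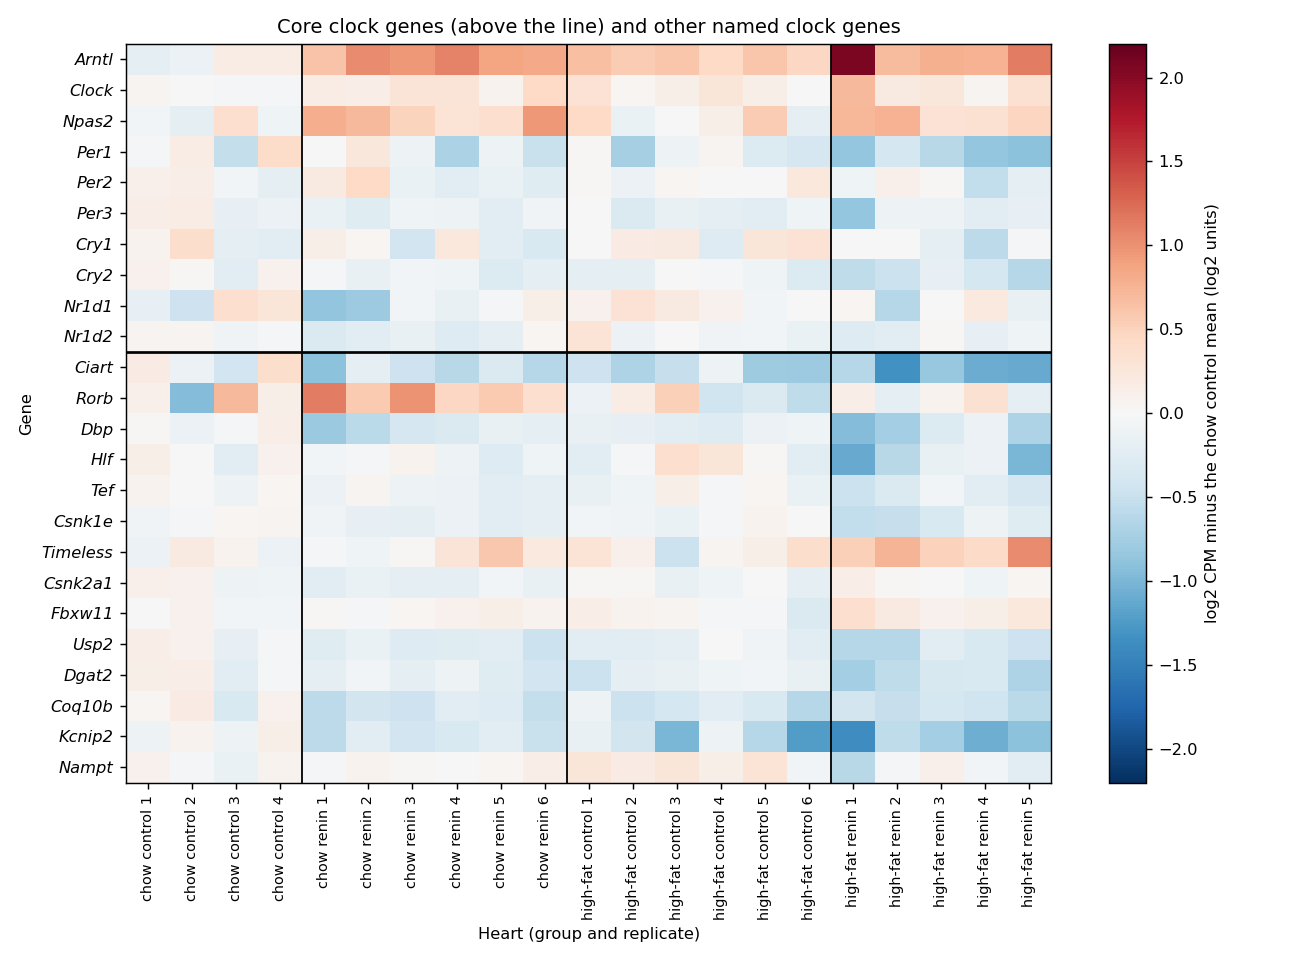
Log2 CPM of each heart minus the chow control mean of the gene (colour, log2 units, red above and blue below the mean) for the 10 core clock genes, above the horizontal line, and the 14 other named clock genes. Columns are hearts ordered by group, and vertical lines separate groups. Arntl is above 0 in all 17 hearts with a stressor and reaches the top of the scale in high-fat renin 1, while Ciart and Kcnip2 are below 0 in all 5 high-fat renin hearts.

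Other signals moved with these groups. The nervous system markers were entered as a covariate, with the values given above, and the part of the other signals in the clock values was not tested. Summed over 8 cardiomyocyte markers, the level was lowest in high-fat renin, at 45273 to 52355 CPM, and highest in chow control, at 55306 to 66895 CPM. It was 51060 to 53861 CPM in chow renin and 52074 to 61123 CPM in high-fat control. Of those 8 markers, 5 fell in high-fat renin against chow control (4.26% of all genes fell there), namely Myh6, Tnnt2, Tnni3, Myl2 and Pln, by 0.32 to 0.48 on the log2 scale. In chow renin Myh6 and Actc1 fell, where 13.5% of all genes were called in either direction. All 8 had reads in every library. In chow renin, 8 of 8 central neuron, 6 of 6 oligodendrocyte and 4 of 6 astrocyte markers rose (10.1% of all genes rose there), among them Snap25 by 2.38, Mbp by 2.08 and Gfap by 2.42 on the log2 scale (edgeR adjusted p of 1.73e-08, 6.22e-08 and 1.49e-07). Their sums were 272 to 415 CPM (neuron), 104 to 173 (oligodendrocyte) and 86.8 to 151 (astrocyte), against 132 to 145, 37.4 to 41.9 and 22.3 to 27.1 CPM in chow control. They were 131 to 174, 37.9 to 59.1 and 28.4 to 41.9 CPM in high-fat control and 105 to 171, 32.0 to 56.7 and 23.9 to 38.7 CPM in high-fat renin. None of those 20 markers passed in high-fat renin against chow control. Fibroblast, endothelial, atrial, adipose and blood markers had 0 calls against chow control in either renin group, and macrophage markers had 1, Mrc1, lower in chow renin. The 6 fibroblast markers all had positive values in high-fat renin against chow control (median 0.48, 3 at an unadjusted p under 0.05), and summed to 680 to 1012 CPM against 482 to 865. Between high-fat renin and chow renin, where Per1 and Cry2 were lower, the fibroblast marker Col1a2 was higher (0.92, edgeR adjusted p = 0.00793), as were the endothelial markers Kdr (0.53, adjusted p = 0.0171) and Tek (0.27, adjusted p = 0.0427). Of the 8 cardiomyocyte markers, 4 were lower and 1 was higher there, where 22.6% of all genes were called and 12.8% were lower. Against high-fat control, 5 of those 8 were lower in high-fat renin and 0 higher, where 5.08% of all genes were lower. The called markers, and the called response genes that follow, were named after their values were seen.

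Genes that respond to glucocorticoids or to handling were counted as well, beside 8.31% of all genes called in high-fat renin and 13.5% in chow renin against chow control. Of 11 glucocorticoid response genes, Cdkn1a rose while Errfi1 and Klf9 fell in high-fat renin against chow control. In chow renin Errfi1 rose. Between high-fat renin and chow renin, where Per1 was lower, 3 of the 11 fell and 0 rose, namely Errfi1 (−1.59), Klf9 (−0.22) and Sgk1 (−0.39), beside 12.8% of all genes lower. Whether these genes bear on Per1 was not tested. Errfi1 and Klf9 also fell against high-fat control, and Errfi1 was lower in the interaction. Fkbp5, Tsc22d3 and Zbtb16 did not pass in any of the 5 comparisons of groups. Of 12 immediate early genes, Egr2 rose and Nr4a1 fell in high-fat renin, and Egr2 and Arc rose in chow renin, which is 2 of 12 in each and near the share over all genes in chow renin. Of 7 genes of the heat and cold response, 0 passed in chow renin and 3 in high-fat renin, both against chow control. Hspa8 rose (0.38, edgeR adjusted p = 0.0152). The 2 that fell were the cold-inducible Cirbp (−0.65 ± 0.14, edgeR adjusted p = 0.00684) and Rbm3 (−0.49 ± 0.14, adjusted p = 0.0319), whose products bind RNA. Against high-fat control Cirbp fell (−0.57, adjusted p = 0.00752) and Hsph1 rose (0.64, adjusted p = 0.0385), where 11.1% of all genes were called. Against chow renin Cirbp (−0.60, adjusted p = 0.00155) and Rbm3 (−0.55) fell and Hspa8 (0.39) and Hspa1a (0.76) rose, where 22.6% of all genes were called.

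How the members moved together between hearts of a group was described with log2 CPM centred on the group means, over 21 hearts and 10 relations with Arntl. Arntl and Per3 had r = −0.81 and rho = −0.61 (permutation p = 0.0151 and 0.02; adjusted over 10 relations 0.151 and 0.2). Without chow control 1 and high-fat renin 1, the hearts farthest from the median of Arntl, r was −0.28, so the relation rests on those hearts. Arntl and Clock had r = 0.66 and rho = 0.39 (permutation p = 0.0529 and 0.0971, adjusted 0.26 and 0.486), and r = 0.24 without the same hearts. The other 7 members had r between −0.36 (Cry2) and 0.29 (Nr1d1), with adjusted permutation p of 0.472 to 0.752. Arntl and the library total had r = −0.61 (adjusted permutation p = 0.26), and r = 0.0014 without those hearts. None of the 10 relations passed at an adjusted p of 0.05. With the replicate number as a block, Clock (r = 0.65) and Per3 (r = −0.81) did pass, although the numbers were not taken to pair the hearts.

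**Figure D4:**
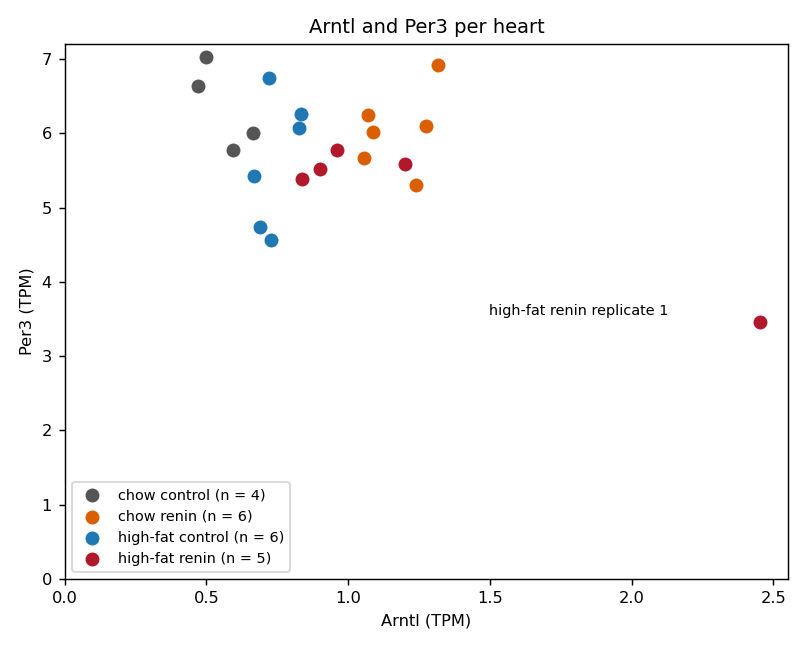
Arntl (x axis, TPM) against Per3 (y axis, TPM) in each of the 21 hearts, coloured by group. High-fat renin 1 sits alone at 2.45 TPM of Arntl and 3.46 TPM of Per3, while the other 20 hearts have 0.47 to 1.32 TPM of Arntl.

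Among 10054 genes with a mean of at least 5 CPM, those whose centred levels were most like Arntl over the 21 hearts were Itga5 (r = 0.82), Leo1 and Xirp1 (both 0.80), Slc38a2 and 1190002N15Rik (both 0.79). Those most opposed were Pou6f1 (−0.84), Rilpl2 (−0.82), Gramd1b (−0.80), Tbp and Cbx3 (both −0.78). These values are descriptions over hearts that share libraries and groups. Without high-fat renin 1, 2 of the 10 stayed on the lists, Leo1 at 0.65 and Pou6f1 at −0.69, and the other 8 had r between −0.31 and 0.37.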

How the data were processed

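RNA of 21 mouse hearts was measured by sequencing, and the labels gave each heart's group and replicate number. Per the file headers, the authors deposited transcript tables, 1 a library, with estimated counts (expected counts, not normalized) and TPM. Salmon 1.10.2 and DESeq2 1.40.2 and the build GRCm38 (mm10) are named in the submitters' processing notes, without roles, and strand settings are not given in the sources used here. The authors also deposited a gene matrix of 19096 genes whose signal is, for over 98% of genes within 1%, gene-level TPM times a factor per library (1.14 to 1.59). Per the file headers, the deposited matrix adds log2 fold changes with adjusted p-values for 1 comparison, whose reference group is not stated.

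Estimated counts were summed to genes through GENCODE M21 (97.95% of 119215 transcripts matched) and rounded to whole numbers. The test had been laid out for counts and was run on these. edgeR 4.0.16 (R 4.3.3) fitted all 21 libraries at once with TMM factors, filterByExpr (15216 genes kept, 99.96% of reads), a term per group and the quasi-likelihood F test with robust estimation. P-values were adjusted by Benjamini and Hochberg over the 15216 genes, with 0.05 as the threshold for a call. SE is the absolute log2 fold change over the square root of F. CPM are TMM-normalized. The fit was tested on simulated data. Library totals were 18.7 to 29.3 M estimated reads, and precision drawn from them covers counting error only.

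Correlations used log2 CPM with a prior count of 2, centred on group means, and 100000 two-sided permutations within groups, with adjustment over 10 relations. Motifs were matched in RefSeq promoter windows. The clock genes, the gene lists and the tests were chosen with earlier results of these data known. All members are named. Of the other clock lists, the genes called in any of the 6 comparisons are named, at most 5 a list by smallest adjusted p, and the genes most like Arntl are the 5 of highest and the 5 of lowest r. Alternatives were other normalizations (RLE, upper quartile), no filter, only the groups compared, DESeq2 1.42.0, limma 3.58.1 on log2(signal + 1), thinning to the smallest library, nervous system markers as a covariate, a replicate block, leaving out each library, and, chosen after seeing the data, leaving out the 3 libraries numbered apart and the 5 with atrial Myl7 above 10 CPM.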

Additional observations from a re-analysis of the deposited data

Results flagged for a closer look

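In 3 of 40 groups of hearts tested (10 genes in 4 groups), 1 heart lay so far from the others that its gap exceeded Dixon's limit, where chance flags about 1 in 20 groups. Arntl in high-fat renin 1 was at 7.63 CPM, against 2.94 to 3.98 CPM in the other 4 hearts of the group. Per3 in the same heart was at 20.2 CPM (20.23 before rounding), against 30.9 to 34.0 CPM in the others. Nr1d2 in high-fat control 1 was at 112 CPM (112.08 before rounding), against 82.8 to 91.9 CPM in the other 5.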

How the results depend on the processing

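Of 144 fold changes (24 genes, 6 comparisons), recomputed 4572 times under the alternatives, 4286 kept their side of the threshold and 60 gained a call, while the others, 4 changes of sign aside, lost one. A change of sign was counted only where a value was called. Among the 4286, 150 values called neither way crossed 0, none by more than 0.84. Called values changed sign 4 times, all in high-fat renin against chow renin with the nervous system marker covariate, to 0.028 for Cry2, 0.45 for Hlf, −0.12 for Timeless and 0.16 for Dgat2. Clock genes called moved as follows, and the cause was not tested except where fewer libraries entered. Without the 3 libraries numbered apart high-fat renin had 0 against chow control, 0 against high-fat control and 1 against chow renin, and chow renin had 1 against chow control, where 0.269%, 3.58%, 15.8% and 7.32% of all genes were called. With the covariate the last 3 of these were 1, 0 and 0, where 8.62%, 0.256% and 0.21% of all genes were called. Without the 5 libraries with atrial Myl7, chow renin against chow control had 1 and high-fat renin against chow renin 1 (10.3% and 16.2% of all genes). Chow renin against chow control called 1 with no filter, 1 on thinned libraries and 1 on the deposited signal (7.5%, 12.2% and 7.75% of all genes), in which Npas2 failed the filter on low values. High-fat renin against high-fat control called 0 with only the groups compared and 1 on the deposited signal (3.81% and 8.65%). Against chow renin, 1 was called with no filter and 1 on the signal (12.6% and 14.7%). Leaving out 1 library gave 2 to 4 clock genes called in high-fat renin against chow control, 0 to 2 against high-fat control and 1 to 2 against chow renin, with 3.68% to 11.4%, 4.58% to 15.8% and 16.3% to 24.9% of all genes. It gave 1 to 3 in chow renin and 0 in high-fat control, both against chow control, and 0 to 1 in the interaction, with 9.83% to 15.5%, 0% to 0.375% and 7.98% to 12.9% of all genes. The interaction was not fitted on fewer groups, since it needs all 4. Arntl and Npas2 had the fewest reads of the members.

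The replicate numbers were not taken to pair the hearts, since not every pair correlated above 0.1: over 28 pairs with the same number r ran from −0.27 to 0.48 (median 0.098, 13 above 0.1), over 136 with different numbers the median was −0.02 (34 above 0.1), and 7 of 21 hearts correlated best with their own number. Replicate 3 of each of the 4 groups was among the 5 libraries with atrial Myl7. With the replicate block, 2 clock genes were called in high-fat renin against chow control (Per1 adjusted p = 0.0651), with 1 against high-fat control, 1 against chow renin and, for chow renin against chow control, 1 (8.71%, 10.4%, 24.1% and 14.8% of all genes). Under the block the correlation with Arntl was 0.65 for Clock and −0.81 for Per3, both past the threshold. Leave-one-out correlations ran from 0.16 to 0.74 for Clock and from −0.86 to −0.37 for Per3.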
